A study of Mus musculus with 27 samples.

Results

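The genes described here encode 8 transcription factors that define the hepatocyte, the main cell type of the liver: Hnf4a, Foxa1, Foxa2, Foxa3, Cebpa, Cebpb, Onecut1 and Prox1. They were taken by gene symbol from a table of 43346 genes, and all 8 were found in it and passed the filter on low counts that left 14482 genes for testing. Expression was measured by RNA sequencing of polyadenylated RNA from hepatocytes of female mice at 12 weeks of age. The mice came from 9 inbred strains with 3 libraries each and no treatment named: the laboratory strains A/J, C57BL/6J, 129S1/SvImJ, NOD/ShiLtJ, DBA/2J and NZO/HlLtJ and the wild-derived strains PWK/PhJ, CAST/EiJ and WSB/EiJ. The wider study set expression beside chromatin marks in the same mice, to relate genetic to epigenetic variation; only expression is analysed here. The libraries are labelled as biological replicates, and p-values measure the spread between them.

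These factors bind one another's regulatory DNA and that of the genes for albumin, clotting factors, apolipoproteins and enzymes of glucose and bile acid metabolism. HNF4A is a nuclear receptor on which much of the hepatocyte programme depends. The FOXA proteins are pioneer factors that bind sites in closed chromatin, C/EBPα acts in metabolic gene expression of the resting liver, and C/EBPβ is induced in the acute phase response and in regeneration. ONECUT1, also called HNF6, and PROX1 act in liver development and, in the adult, on bile acid and glucose metabolism.

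The promoters of 5 of these genes are printed to show the DNA in front of the 4 genes that differed among strains and of Hnf4a. Each line gives the 250 bases before a RefSeq transcription start on GRCm38.p6, 5′ to 3′ on the gene's strand. Capitals mark matches, on either strand, to TATAAA (the TATA box core), GGGCGG (the GC box bound by Sp and KLF proteins), CCAAT (a box bound by NF-Y), TGACG (the half-site of CREB and ATF proteins), TGTTTAC (a FOXA site core), ATCAAT (a ONECUT site core) or TTGCNNAA (a C/EBP site core). The windows are chr2:163546905-163547154 (plus strand) for the downstream of the pair of Hnf4a starts, chr7:19023540-19023789 (minus) for Foxa3, chr7:35119043-35119292 (plus) for Cebpa, chr2:167688665-167688914 (plus) for Cebpb and chr9:74861671-74861920 (plus) for Onecut1.
Hnf4a: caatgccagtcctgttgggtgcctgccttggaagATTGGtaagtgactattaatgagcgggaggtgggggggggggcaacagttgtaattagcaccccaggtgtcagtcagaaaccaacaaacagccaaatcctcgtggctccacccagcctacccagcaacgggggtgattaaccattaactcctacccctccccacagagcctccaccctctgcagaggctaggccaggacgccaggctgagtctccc
Foxa3: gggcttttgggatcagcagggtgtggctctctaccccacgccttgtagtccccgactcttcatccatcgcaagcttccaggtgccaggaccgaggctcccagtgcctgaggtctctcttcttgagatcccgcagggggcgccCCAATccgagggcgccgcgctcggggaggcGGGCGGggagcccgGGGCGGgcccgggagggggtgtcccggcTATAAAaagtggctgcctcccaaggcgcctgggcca
Cebpa: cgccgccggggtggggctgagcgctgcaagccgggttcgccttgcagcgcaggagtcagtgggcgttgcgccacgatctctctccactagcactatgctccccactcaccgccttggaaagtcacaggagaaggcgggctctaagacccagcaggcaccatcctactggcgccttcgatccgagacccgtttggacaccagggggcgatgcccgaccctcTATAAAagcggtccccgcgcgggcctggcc
Cebpb: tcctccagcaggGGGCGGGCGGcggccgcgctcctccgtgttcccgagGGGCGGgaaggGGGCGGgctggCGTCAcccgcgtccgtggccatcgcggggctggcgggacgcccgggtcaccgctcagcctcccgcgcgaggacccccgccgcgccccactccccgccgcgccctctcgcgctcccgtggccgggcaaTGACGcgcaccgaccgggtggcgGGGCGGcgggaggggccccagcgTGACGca
Onecut1: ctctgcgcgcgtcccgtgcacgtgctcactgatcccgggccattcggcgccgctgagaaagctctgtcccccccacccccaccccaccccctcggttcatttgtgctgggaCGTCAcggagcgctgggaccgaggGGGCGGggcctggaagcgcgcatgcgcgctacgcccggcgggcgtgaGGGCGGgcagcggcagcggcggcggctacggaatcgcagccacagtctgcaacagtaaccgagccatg

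The Hnf4a window held a CCAAT box on the other strand, at −216 from the start, and no other match. Foxa3 and Cebpa each carried a TATA box core, at −36 and −30. The Cebpb window was 81.6% G and C and held 5 GC boxes, of which a pair overlaps, and 3 CREB and ATF half-sites. Onecut1 had 2 GC boxes and 1 such half-site. RefSeq gave 12 start windows for the 8 genes. Over 32851 mouse windows, TATAAA occurred in 12.4%, and in 4 of the 12. GGGCGG occurred in 32.7% and 9 of the 12, CCAAT in 33.8% and 5 of the 12, and TGACG in 17.8% and 2 of the 12. TGTTTAC was found in 3.2% of mouse windows and 1 of the 12 (Foxa1), ATCAAT in 6.7% and 2 of the 12 (Hnf4a and Foxa2), and TTGCNNAA in 9.6% and 0 of the 12. A match is a description of the sequence only.

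Library totals ran from 17015932 to 35078483 estimated counts, which leaves all 8 genes well counted: the lowest value of any of them in a library was 79 counts, for Onecut1. Levels below are CPM, counts per 1000000 counts of a library size scaled by TMM. The labelled cell type was checked against marker lists. The 10 hepatocyte markers summed to between 127978.9 and 369632.6 CPM per library. The 10 markers of Kupffer cells, the liver's macrophages, summed to 33.4 to 414.3 CPM, those of liver endothelial cells to 53.1 to 651.1, of lymphatic endothelial cells to 9.04 to 100.7, of stellate cells to 16.3 to 91.8, of cholangiocytes to 7.0 to 18.6, of lymphocytes to 0.829 to 11.7 and of erythroid cells to 2.19 to 34.9. No marker was at 0 in every library, but the cholangiocyte genes Krt19, Krt7, Epcam, Cftr and Cldn7 had a median of 3 counts or fewer. PWK/PhJ replicate 1 stood apart, with the highest Kupffer and endothelial sums. In such bulk samples, fewer cells of a type and less RNA per cell cannot be told apart.

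Strain differences were called for 4 of the 8 genes, Foxa3, Cebpa, Cebpb and Onecut1, where 74.2% of all tested genes were called (edgeR quasi-likelihood test of all strain terms, Benjamini-Hochberg adjusted p under 0.05). Hnf4a, Foxa1 and Prox1 missed the threshold with adjusted p of 0.0524, 0.0615 and 0.0724, and Foxa2 with 0.501. DESeq2 called all of these but Foxa2, 7 of the 8, and 79.0% of all genes. How the share of the 8 compares with that of all genes depended on the setting: 6 of the 8 were called with median-of-ratios size factors, where 74.7% of all genes were. With no filter on low counts, 5 of the 8 were called and 46.4% of all genes. That share is over 23822 genes in place of 14482, with 11042 called in place of 10746, so it is not a like comparison for these well counted genes. None of the 8 had a strain whose 3 libraries all lay above or all below those of the other strains, which 24.0% of all tested genes had. Measured per kilobase of transcript, the mean level ran from Hnf4a at 80.4 CPM per kb and Cebpa at 58.4 through Cebpb at 14.2, Foxa3 at 11.0, Foxa2 at 8.55, Prox1 at 8.09 and Onecut1 at 4.64 to Foxa1 at 2.76.

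**Figure D1:**
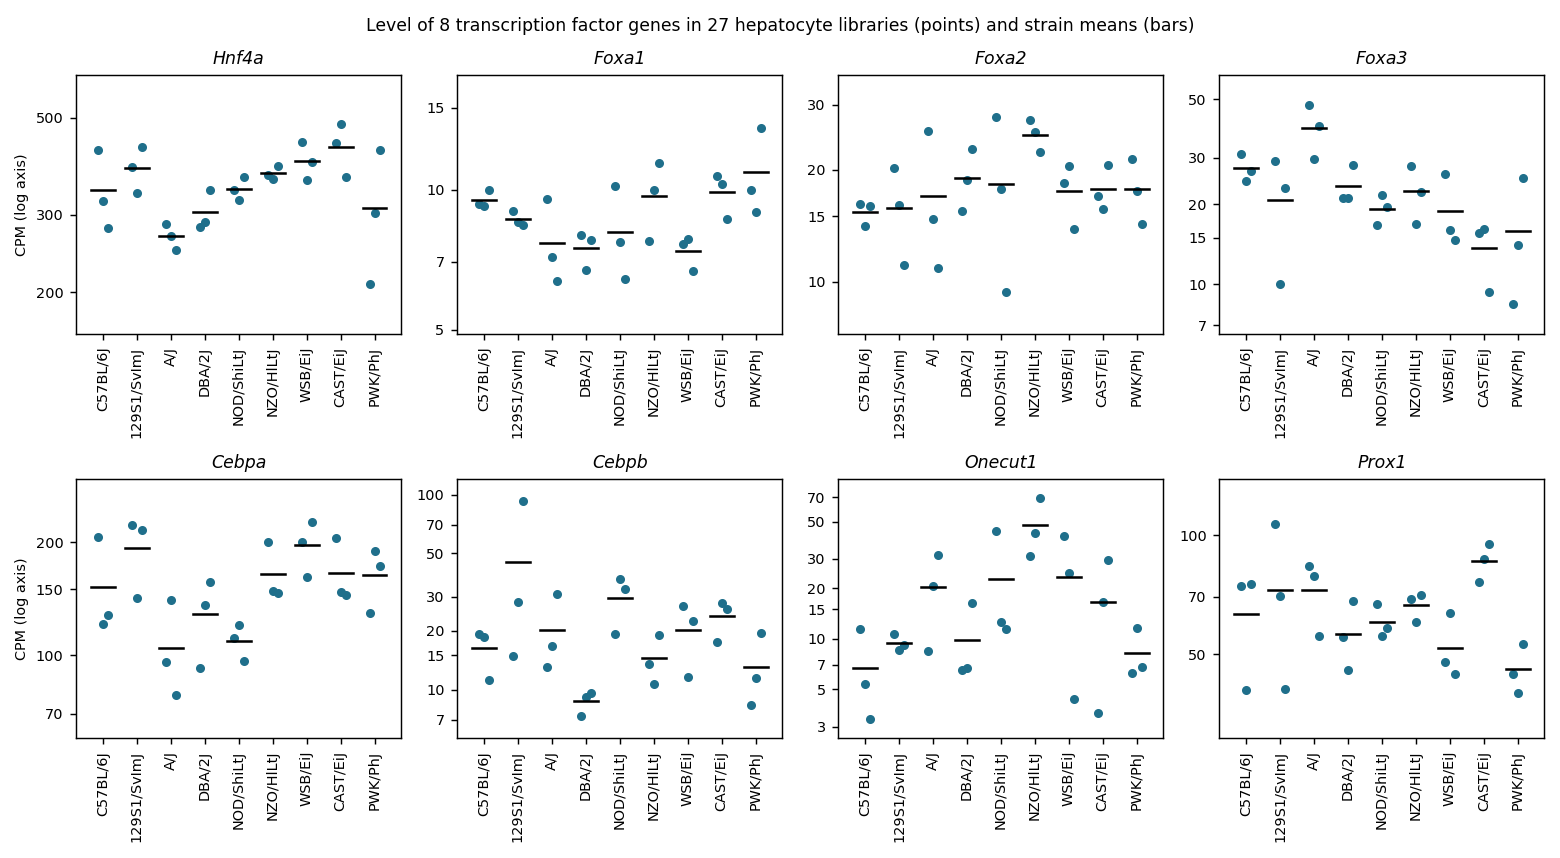
Level of each gene in CPM (vertical log axis, scaled to each gene) by strain (horizontal axis); points are the 27 libraries and bars the means of the 3 libraries of a strain. Hnf4a stays between 208.7 and 482.3 CPM, while Onecut1 spans 3.32 to 69.4 and the libraries of most strains overlap for every gene.

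Hnf4a (ENSMUSG00000017950, chr2:163506808-163572910, plus strand) had the highest level of the 8 per length and a narrow range. The strain means ran from 268.1 ± 18.0 CPM in A/J (SD, n = 3, as for all strain means) to 428.3 ± 58.7 in CAST/EiJ. The A/J libraries held 285.6, 269.1 and 249.7 CPM and the CAST/EiJ libraries 437.0, 482.3 and 365.8. These groups do not overlap, and A/J overlaps other strains only through low libraries of C57BL/6J, DBA/2J and PWK/PhJ. A/J lay 0.42 ± 0.15 (SE) below the mean of the other 8 strains on the log2 scale (edgeR, adjusted p = 0.037), a contrast in which 27.5% of all genes were called. Against CAST/EiJ, A/J was lower by 0.68 ± 0.19 (adjusted p = 0.00645; 42.4% of all genes called), a pair picked from the data as the extremes. The difference of A/J from the other strains missed the threshold without any one of the A/J libraries (adjusted p of 0.0597, 0.107 and 0.188), with no filter on low counts (fell by 0.43, adjusted p = 0.0504) and with the Kupffer and endothelial list means as covariates (fell by 0.35, adjusted p = 0.151). The lowest library of all, PWK/PhJ replicate 1 at 208.7 CPM, is the one with the highest macrophage and endothelial marker sums. Without it the strain effect on Hnf4a had an adjusted p of 0.0186, and that effect was also called without any one of C57BL/6J replicates 1 (0.0259) and 4 (0.0456), DBA/2J replicate 4 (0.0428), CAST/EiJ replicate 5 (0.0434) or PWK/PhJ replicate 3 (0.00603). Over the 27 libraries Hnf4a correlated with the log2 of the summed CPM of Kupffer markers at r = −0.56, of endothelial markers at −0.54 and of hepatocyte markers at −0.53, described here without a test.

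Foxa1 (ENSMUSG00000035451, chr12:57540628-57546916, minus strand), the lowest of the 8 per length, differed little among strains. Its strain means ran from 7.38 ± 0.615 CPM in WSB/EiJ to 10.9 ± 2.46 in PWK/PhJ. The PWK/PhJ libraries held 9.98, 8.97 and 13.6 CPM, and only the last of these lay above all libraries of other strains. PWK/PhJ was above the mean of the other 8 by 0.35 ± 0.13 on the log2 scale (edgeR, adjusted p = 0.0408; 34.2% of all genes called). Without PWK/PhJ replicate 3 the difference was 0.15 (adjusted p = 0.499), and without replicate 1 it was 0.41 (adjusted p = 0.0576). Leaving out C57BL/6J replicate 2, 129S1/SvImJ replicate 2 or 3, A/J replicate 2 or 3, DBA/2J replicate 3, NOD/ShiLtJ replicate 2, WSB/EiJ replicate 3 or 4 or CAST/EiJ replicate 5 also ended the call, with adjusted p of 0.0505 to 0.0598 and differences of 0.33 to 0.35. It was also lost with no filter on low counts (0.35, adjusted p = 0.0689), with Kupffer and endothelial covariates (0.45, adjusted p = 0.0743) and with the immediate early list mean as a covariate (0.36, adjusted p = 0.0661). The strain effect on Foxa1 was called without A/J replicate 1 (adjusted p = 0.0238), NOD/ShiLtJ replicate 1 (0.0244), NZO/HlLtJ replicate 1 (0.0369) or PWK/PhJ replicate 2 (0.0387).

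Foxa2 (ENSMUSG00000037025, chr2:148042877-148046969, minus strand) varied more between libraries of a strain than between strains. Its strain means were highest in NZO/HlLtJ, at 24.9 ± 2.53 CPM, and lowest in C57BL/6J, at 15.4 ± 1.14, or, on the log2 scale, in 129S1/SvImJ (15.8 ± 4.64 CPM). NOD/ShiLtJ alone held 27.8, 17.8 and 9.41 CPM, the highest and the lowest of all 27 libraries, and the NZO/HlLtJ libraries held 27.3, 25.3 and 22.3. Strain accounted for 26.2% of its sum of squares, and no pair of strains was called in 36 comparisons. NZO/HlLtJ and 129S1/SvImJ, the extremes on the log2 scale, differed by 0.66 ± 0.30 on the log2 scale (adjusted p = 0.19; 9.93% of all genes called). NZO/HlLtJ exceeded the mean of the other 8 by 0.53 ± 0.21 and missed the threshold (edgeR, adjusted p = 0.0659). The settings under which that contrast was called include no filter on low counts, the GC trend removed, and the fits without A/J replicate 1 or NOD/ShiLtJ replicate 1. In 6 of the 7 strains with a library numbered 1, that library was the highest for Foxa2, by a mean of 0.48 on the log2 scale over the others of its strain. Those libraries were also the highest in the list mean of 12 immediate early genes, such as Fos and Egr1 that respond within minutes to stimulation, in 6 of 7 strains (mean difference 0.76). Foxa2 and the log2 of the summed CPM of those genes correlated at r = 0.55 over the 27 deviations from strain means. With their list mean as a covariate, a check chosen after seeing the data, the strain effect on Foxa2 had an adjusted p of 0.0768 and was still not called. Over the same deviations Foxa2 correlated with the log2 of the summed CPM of cholangiocyte markers at r = 0.57, and the part of those cells was not tested.

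Foxa3 (ENSMUSG00000040891, chr7:19013284-19023538, minus strand), the family member known for its role in adult glucose metabolism, was high in A/J and low in CAST/EiJ. The A/J libraries held 47.6, 29.7 and 39.7 CPM (mean 39.0 ± 8.96), and those of CAST/EiJ 15.6, 16.1 and 9.38 (mean 13.7 ± 3.73). These groups do not overlap, and only A/J replicate 2 lies within the range of other strains. A/J exceeded the mean of the other 8 by 0.97 ± 0.23 on the log2 scale (edgeR, adjusted p = 0.00316), and with each library left out in turn this was 0.80 to 1.14 and stayed called. CAST/EiJ lay below the other strains by 0.72 ± 0.27 (adjusted p = 0.0401; 37.9% of all genes called), which missed the threshold without any one of its own libraries (lowest adjusted p 0.0638) or without NOD/ShiLtJ replicate 2 (0.051), and with the trend on GC content removed (fell by 0.66, adjusted p = 0.0573). The strain effect itself (adjusted p = 0.0127) rose to 0.0604 without A/J replicate 1. A/J was thus the strain with the lowest Hnf4a and the highest Foxa3, and it also had the largest summed hepatocyte markers, 316683.5 ± 49365.0 CPM against 134290.4 ± 5926.8 in CAST/EiJ, the lowest. Albumin (Alb) made up most of that sum, at 229352.0 CPM in A/J and 86601.5 in CAST/EiJ. By the mean log2 CPM of the list, which weights its genes equally, the WSB/EiJ libraries held 12.93 to 13.02, those of A/J 12.59 to 13.04, those of CAST/EiJ 12.34 to 12.39 and those of NZO/HlLtJ 12.06 to 12.27, so neither A/J nor CAST/EiJ was the extreme strain on that scale. The part of either measure in these results was not tested.

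Cebpa (ENSMUSG00000034957, chr7:35119293-35121928, plus strand), whose product drives genes of glycogen and urea metabolism, was lowest in A/J as well. Its means ran from 104.7 ± 31.8 CPM in A/J to 196.1 ± 32.9 in WSB/EiJ. The libraries held 95.8, 140.0 and 78.2 CPM in A/J and 199.8, 161.5 and 226.9 in WSB/EiJ, with no overlap. A/J lay below the mean of the other 8 by 0.58 ± 0.20 on the log2 scale (edgeR, adjusted p = 0.0295). This missed the threshold without A/J replicate 1 (fell by 0.53, adjusted p = 0.106) or replicate 3 (fell by 0.42, adjusted p = 0.245), and with the trend on GC content removed (adjusted p = 0.0505). The strain effect as a whole (adjusted p = 0.0155) stayed called with each of the 27 libraries left out. Of its 36 strain pairs 7 were called, the most among the 8 genes, and 5 of them involve A/J: higher levels in CAST/EiJ, PWK/PhJ, 129S1/SvImJ, WSB/EiJ and NZO/HlLtJ. The other 2 place NOD/ShiLtJ below 129S1/SvImJ and WSB/EiJ.

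Cebpb (ENSMUSG00000056501, chr2:167688915-167690418, plus strand) was high in 1 library of 129S1/SvImJ and uniformly low in DBA/2J. The 129S1/SvImJ libraries held 14.9, 28.2 and 92.7 CPM, and the last is the highest of all 27, followed by 36.9 in NOD/ShiLtJ replicate 2. The DBA/2J libraries held 7.31, 9.19 and 9.63 CPM (mean 8.71 ± 1.23), and the only library of another strain below 9.63 is PWK/PhJ replicate 1 at 8.35. 129S1/SvImJ exceeded the mean of the other 8 by 1.39 ± 0.31 on the log2 scale (edgeR, adjusted p = 0.00234; 18.4% of all genes called), and by 0.33 (adjusted p = 0.514) without replicate 3. That replicate had a Kupffer marker sum of 85.7 CPM against 40.7 and 45.4 in the other libraries of its strain. Its endothelial sum was 154.0 against 78.8 and 88.7, its lymphatic endothelial sum 31.1 against 14.0 and 16.4, and its stellate sum 55.7 against 22.7 and 30.1. Its immediate early sum was 183.1 against 182.1 and 108.3. Over the 27 deviations from strain means, Cebpb correlated with the log2 of the stellate sum at r = 0.39, the lymphatic at 0.34, the endothelial at 0.24 and the Kupffer at −0.04. The lymphatic list shares Lyve1 and Flt4 with the endothelial one, and the part of stellate and lymphatic cells was not tested. With the Kupffer and endothelial list means as covariates, 129S1/SvImJ exceeded the other strains by 1.3 (adjusted p = 0.0146). DBA/2J lay below the other strains by 1.28 ± 0.40 (adjusted p = 0.0319; 13.3% of all genes called), and by 1.15 (adjusted p = 0.0121) without 129S1/SvImJ replicate 3, but without any one DBA/2J library it missed the threshold (adjusted p of 0.17, 0.114 and 0.074), as it did with Kupffer and endothelial covariates (fell by 1.03, adjusted p = 0.0727). Cebpb shares 312 bases of exon with Tmem189 on the other strand, and the library kit is not described as marking strand. With the counts of both genes summed, a check chosen after seeing the data, DBA/2J fell by 0.88 (adjusted p = 0.056), so the level of Cebpb alone is uncertain.

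Onecut1 (ENSMUSG00000043013, chr9:74861921-74891781, plus strand) had the widest range of the 8, with its peak in NZO/HlLtJ, an obese strain. The NZO/HlLtJ libraries held 31.3, 42.8 and 69.4 CPM (mean 47.9 ± 19.6), and the C57BL/6J libraries, the lowest on average, 11.5, 5.42 and 3.32 (mean 6.73 ± 4.22). NZO/HlLtJ overlaps other strains, as NOD/ShiLtJ replicate 1 held 43.8 CPM, WSB/EiJ replicate 2 held 41.4 and A/J replicate 3 held 31.8. NZO/HlLtJ exceeded the mean of the other 8 by 1.85 ± 0.43 on the log2 scale (edgeR, adjusted p = 0.00258; 27.6% of all genes called), and by 1.49 to 2.08 with each library left out, always called. From the log2 means the highest strain was 7.58 times the lowest (log2 difference in the fit 2.82 ± 0.72, adjusted p = 0.006, for a pair picked as the extremes, in which 29.3% of all genes were called). Some strains were spread widely within themselves: WSB/EiJ held 41.4, 24.8 and 4.37 CPM and CAST/EiJ 3.61, 16.7 and 29.6. The exons of Onecut1 share 2171 bases with the lincRNA Gm20649 on the same strand, which had 0 to 232 counts, so the division of reads between the genes is uncertain. With both summed, the call in NZO/HlLtJ held. The summed erythroid markers were also highest in NZO/HlLtJ, at 24.1 ± 1.92 CPM, and the highest single library was WSB/EiJ replicate 2, at 34.9. Onecut1 correlated with the log2 of that sum at r = 0.49 over the 27 libraries and 0.53 over their deviations from strain means. By the mean log2 CPM of the erythroid list, the NZO/HlLtJ libraries held 0.51, 0.16 and −1.24 and those of C57BL/6J 2.61, 1.49 and 1.15. NZO/HlLtJ was thus not the highest strain on that scale. The part of these cells in the result was not tested.

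Prox1 (ENSMUSG00000010175, chr1:190118035-190170714, minus strand), also a marker of lymphatic endothelium, was highest in CAST/EiJ and lowest in PWK/PhJ. The CAST/EiJ libraries held 76.1, 87.3 and 94.9 CPM (mean 86.1 ± 9.46) and the PWK/PhJ libraries 44.5, 39.9 and 53.0 (mean 45.8 ± 6.63), without overlap. The 129S1/SvImJ libraries alone spanned 106.8, 70.2 and 40.8, nearly the whole range of the 27. CAST/EiJ exceeded the mean of the other 8 by 0.51 ± 0.18 on the log2 scale (edgeR, adjusted p = 0.033), which missed the threshold without any one of its libraries (adjusted p of 0.0518, 0.105 and 0.159), with Kupffer and endothelial covariates (0.35, adjusted p = 0.225) and with Prox1os, an antisense gene that shares 133 bases of exon, summed in (0.45, adjusted p = 0.0538). The replicate number as a block ended that call too. The strain effect on Prox1 was called without C57BL/6J replicate 2 (adjusted p = 0.0341), 129S1/SvImJ replicate 1 (0.0342) or 3 (0.0093), A/J replicate 3 (0.0472) or WSB/EiJ replicate 3 (0.0495). The lymphatic endothelial markers were highest in PWK/PhJ, at 61.9 ± 34.2 CPM, where Prox1 was lowest, and Prox1 correlated with their list mean at r = −0.43 over the 27 libraries and −0.19 over deviations from strain means. Over deviations from strain means Prox1 correlated with the log2 of the summed CPM of cholangiocyte markers at r = 0.59 and of hepatocyte markers at −0.55. The part of these cells in its values was not tested.

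Of the 72 contrasts of a strain with the other 8, these 9 (12.5%) were called, where 24.1% of such contrasts were called over all genes. No gene of the 8 was called in C57BL/6J (18.1% of all genes), NOD/ShiLtJ (14.9%) or WSB/EiJ (24.7%). At an unadjusted p under 0.05, edgeR gave 1 there in C57BL/6J (Onecut1), 2 in NOD/ShiLtJ (Cebpa and Cebpb) and 1 in WSB/EiJ (Cebpa), and DESeq2 called 1 adjusted, Cebpa in NOD/ShiLtJ. Only Foxa3 in A/J and Onecut1 in NZO/HlLtJ kept their call with each of the 27 libraries left out, and also under every other setting tried. Of 288 pairs of strains over the 8 genes, 32 (11.1%) were called, where the share over all genes was 23.4%, ranging from 7.84% to 42.4% by pair. None of the 64 steps between neighbouring strains in a gene's order was called by edgeR or DESeq2, and none had an unadjusted p under 0.05, so the order of the strains is resolved only between distant ones.

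**Figure D2:**
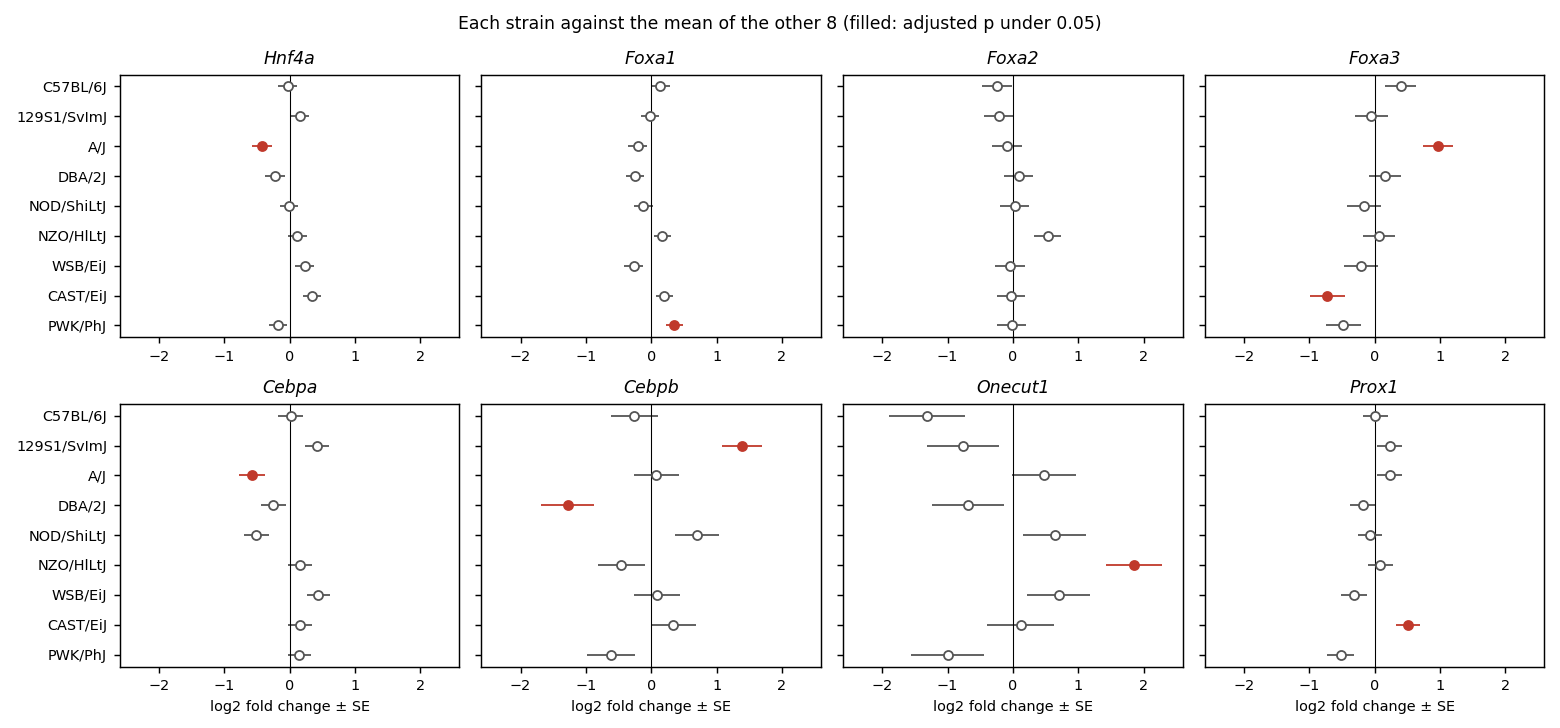
Log2 fold change of each strain (vertical axis) against the mean of the other 8, with its standard error, for each gene; filled red points have an adjusted p under 0.05 in edgeR. The 9 filled points lie between −1.28 (Cebpb in DBA/2J) and 1.85 (Onecut1 in NZO/HlLtJ), and C57BL/6J, NOD/ShiLtJ and WSB/EiJ have none.

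Each gene was then set beside protein-coding genes of similar level, those whose mean lay within 0.25 of its own on the log2 CPM scale. For Hnf4a there were 104 such genes, of which 98.1% had a called strain effect. The strain range of Hnf4a, 0.67 from the lowest to the highest strain mean on the log2 scale, stood at the percentile 6.73 among them, and their median was 1.20. Foxa1, with a range of 0.53, stood at percentile 21.3 of 1099 genes, and Foxa2, with 0.69, at 47.5 of 1025. Cebpa (range 0.93) stood at 46.6 of 223 and Prox1 (0.91) at 57.5 of 485. The widest ranges were those of Foxa3, 1.52 at percentile 88.4 of 976, Cebpb, 1.97 at 94.3 of 1024, and Onecut1, 2.92 at 96.8 of 1034. The share of similar genes with a called strain effect was 89.7% for Cebpa, 84.9% for Prox1, 74.6% for Foxa3 and 72.5% for Foxa2. It was 72.3% for Cebpb, 71.6% for Onecut1 and 68.7% for Foxa1.

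The spread within strains was wide for most of these genes beside others of their level. The within-strain SD of Onecut1 was 1.02 on the log2 scale, at percentile 99.8 of genes of similar level. Cebpb had 0.65 (percentile 98.8), Foxa3 0.47 (96.5), Foxa2 0.41 (95.2), Prox1 0.35 (93.6) and Cebpa 0.33 (87.4). Hnf4a and Foxa1 did not share this, with 0.23 (43.3) and 0.22 (46.7). The share of the sum of squares that lay between strains was below the median of similar genes for all 8, from 26.2% for Foxa2 (percentile 1.56) to 58.0% for Cebpa (13.5). Over the 8 genes the median range was 0.92, against 1.16 for all tested genes, the median within-strain SD 0.38 against 0.28, and the median share between strains 52.9% against 66.6%. These are descriptions of genes chosen by name, given without a test.

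**Figure D3:**
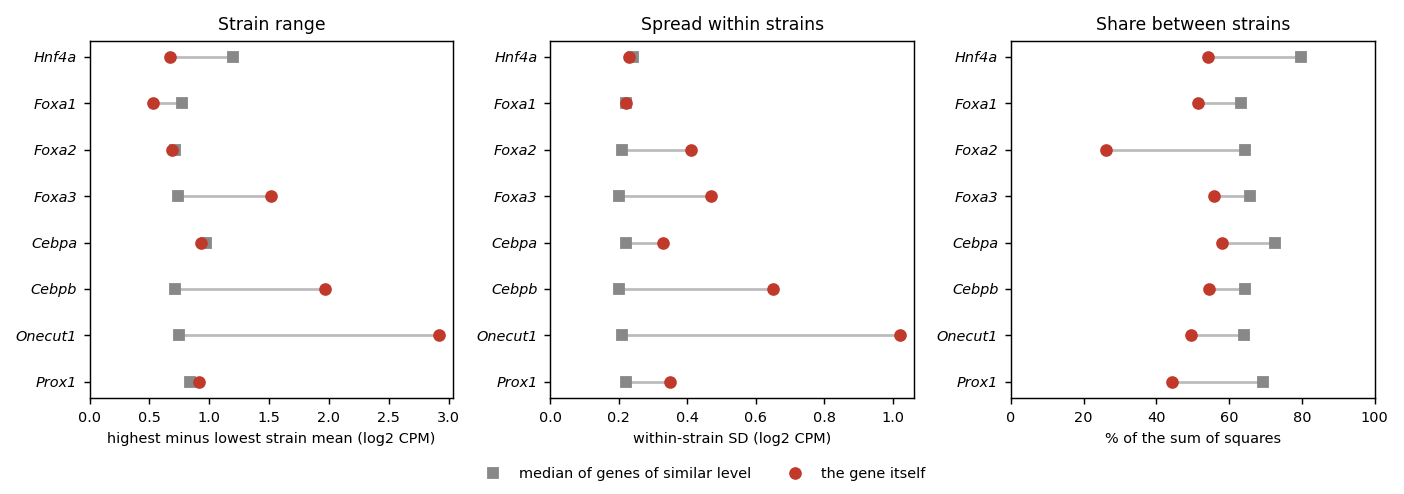
The 8 genes (red circles) beside the median of protein-coding genes of similar level (grey squares) for the strain range and the within-strain SD, both in log2 CPM, and the percent of the sum of squares between strains. The circles of Hnf4a and Foxa1 sit left of or near the squares for range and SD, those of Onecut1, Cebpb and Foxa3 far to the right, and all 8 circles lie left of the squares for the share between strains.

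Whether the factors varied together across strains was asked of the 9 strain means. Of 28 pairs of genes, none had an adjusted p under 0.05 (exact permutation test, two-sided, lowest adjusted p 0.602 for Pearson's r and 0.387 for Spearman's rho), and 2 had an unadjusted p under 0.05. Hnf4a and Cebpa correlated at r = 0.71 (exact p = 0.0351; rho = 0.80, exact p = 0.0138), and at 0.57 without A/J and CAST/EiJ, the strains farthest from the median of Hnf4a. Foxa2 and Onecut1 correlated at r = 0.71 (exact p = 0.0477; rho = 0.27, exact p = 0.493) and at 0.02 without 129S1/SvImJ and NZO/HlLtJ, so that relation rests on those strains. Hnf4a and Foxa3 had r = −0.62 across strain means (exact p = 0.0736, adjusted p = 0.602) and 0.06 without A/J and CAST/EiJ. Without PWK/PhJ replicate 1, their r was −0.89 with an adjusted p of 0.0436, the only pair called when each of the 27 libraries was left out in turn.

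Within strains, some pairs had a correlation of the opposite sign. The deviations of the 27 libraries from their strain means, which share a library's depth and scaling, correlated at 0.74 for Hnf4a and Foxa3, the highest of the 28 pairs, and at 0.53 for Hnf4a and Cebpa. The lowest were −0.63 for Foxa2 and Cebpb and −0.62 for Cebpb and Prox1, a pair with r = 0.47 across strain means (exact p = 0.2). In the 7 strains with a library numbered 1, Cebpb was higher there than in the other libraries in only 1, with a mean difference of −0.65 on the log2 scale, the reverse of Foxa2. Deviations were positively correlated in 21 of the 28 pairs, and strain means in 17.

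**Figure D4:**
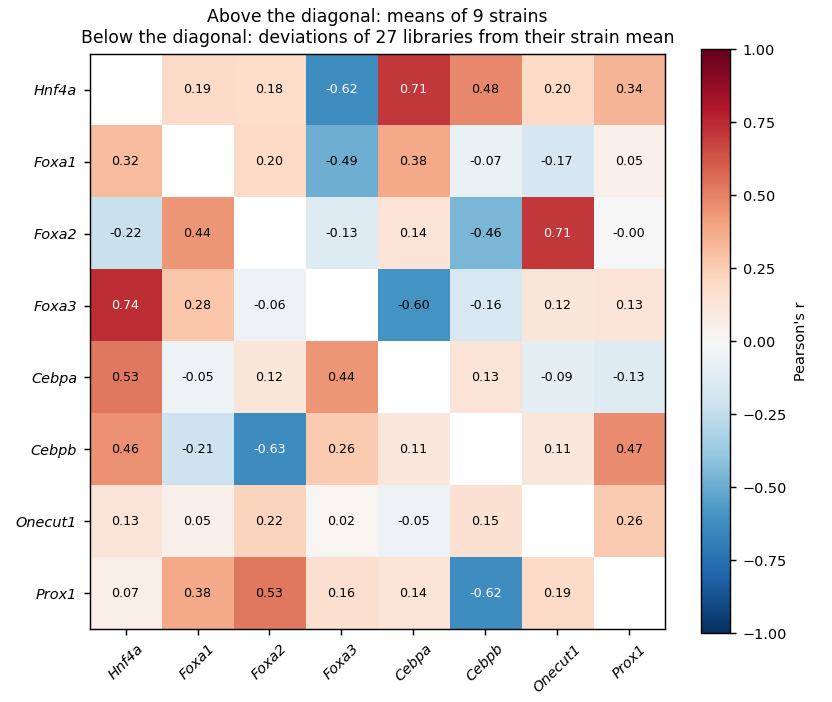
Pearson's r between the 8 genes (both axes), over the means of 9 strains above the diagonal and over deviations of 27 libraries from their strain mean below it; colour runs from −1 (blue) to 1 (red). Hnf4a and Foxa3 are at −0.62 above and 0.74 below the diagonal, the widest reversal described in the text.

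The genes most like each factor over the 27 libraries, among protein-coding genes averaging at least 10 CPM, were listed as a description. For Hnf4a they were Gsto1 (r = 0.85), which encodes a glutathione transferase, Shb (0.83), an adaptor in tyrosine kinase signalling, and Rnf10 (0.82). Cebpb was followed most closely by Pim3 (0.86), a kinase gene, Srsf4 (0.79), a splicing factor gene, and Arl4d (0.78), and Prox1 by Scyl3 (0.78), Asxl2 (0.77) and Xrn2 (0.77). Foxa2 ran most closely with Cish (0.69), which encodes an inhibitor of cytokine signalling, Phlda1 (0.64) and Sec24d (0.61). For the others these were Rpl3 (0.70), Pja2 (0.69) and Atf7ip (0.69) with Foxa1, Cars (0.72), Rnf19a (0.71) and Abca8a (0.68) with Foxa3, Gnl1 (0.79), Scrn2 (0.74) and Zfp385a (0.74) with Cebpa, and Wdr45b (0.71), Nrip1 (0.67) and Emc8 (0.65) with Onecut1.

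Known targets of these factors were counted by the same test, beside the 74.2% of all genes. All 15 listed targets of HNF4A were called, with a median strain range of 1.20 on the log2 scale, close to the 1.16 of all genes. The widest were Apoa4, an apolipoprotein gene, at 1448.8 ± 406.7 CPM in 129S1/SvImJ and 174.3 ± 21.9 in CAST/EiJ, Pck1, the gluconeogenic enzyme gene, at 2423.0 ± 479.5 in CAST/EiJ and 670.4 ± 741.0 in PWK/PhJ, and G6pc, which encodes glucose-6-phosphatase, at 1092.0 ± 156.4 in WSB/EiJ and 386.6 ± 194.2 in NZO/HlLtJ. Of 10 FOXA targets 8 were called (median range 1.33), led by Igfbp1, at 299.7 ± 141.8 CPM in WSB/EiJ and 35.5 ± 16.1 in DBA/2J, with Pck1 and Ttr (transthyretin, 6924.0 ± 1419.9 in A/J and 2515.1 ± 381.3 in CAST/EiJ) next. The amino acid enzyme genes Tat and Tdo2 were not called, and Tdo2 had the narrowest range, 0.39.

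Of 14 C/EBP targets 13 were called (median range 1.70), and Tat was not. Acute phase genes led this list: Lcn2 at 228.4 ± 296.7 CPM in WSB/EiJ and 0.379 ± 0.325 in NZO/HlLtJ, Orm1 at 943.0 ± 273.8 in C57BL/6J and 40.5 ± 24.4 in PWK/PhJ, and Saa2 at 125.6 ± 187.4 in WSB/EiJ and 2.65 ± 0.390 in 129S1/SvImJ. For Lcn2 and Saa2 the SD in WSB/EiJ exceeds the mean. Fga, a fibrinogen chain gene, had the narrowest range, at 1.08. Of 8 targets of Onecut1 and Prox1, 6 were called (median range 1.53), led by Cyp8b1, an enzyme of bile acid synthesis, at 656.8 ± 229.9 CPM in WSB/EiJ and 143.7 ± 21.1 in 129S1/SvImJ, and with G6pc also among the widest. Cyp7a1, the rate-limiting enzyme of bile acid synthesis, was not called (155.9 ± 61.5 CPM in CAST/EiJ and 47.8 ± 24.0 in 129S1/SvImJ, adjusted p = 0.219), nor was Pfkfb1, which had the narrowest range, 0.35.

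Other liver transcription factors had ranges near those of the 8. Of 26 such genes 25 were tested (Hnf4g was not), and 16 were called, with a median range of 0.87. The widest were the clock-controlled genes Dbp, at 20.7 ± 13.5 CPM in CAST/EiJ and 0.566 ± 0.0201 in NOD/ShiLtJ, and Tef, at 62.9 ± 18.6 and 21.3 ± 2.84 in the same strains, followed by Atf5 at 329.8 ± 12.4 in NZO/HlLtJ and 125.8 ± 32.0 in PWK/PhJ. Nfib had the narrowest range, 0.31. Those not called included Nr2f6, Gata4, Gata6, Tbx3, Foxo1, Klf15, Nfib and Zbtb20. Among 5 other members of the C/EBP family only Cebpe was called (median range 0.70): it had 1.65 ± 0.189 CPM in C57BL/6J and 0 counts in all libraries of 129S1/SvImJ, so that C57BL/6J was at least 16.8-fold higher than the 0.0978 CPM that 3 counts in a library stand for, a floor that covers counting error only. Cebpz and Cebpg had the narrowest ranges, 0.65 each. Of 14 cofactors and inhibitors 9 were called (median range 1.04), led by Id1 at 7.88 ± 5.95 CPM in C57BL/6J and 0.752 ± 0.519 in NZO/HlLtJ, Trib2 at 1.32 ± 0.668 in PWK/PhJ and 0.245 ± 0.270 in 129S1/SvImJ, and Trib1, which targets C/EBPα for degradation, at 27.2 ± 8.28 in WSB/EiJ and 9.29 ± 4.62 in NOD/ShiLtJ. Hdac3 had the narrowest range, 0.34.

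**Figure D5:**
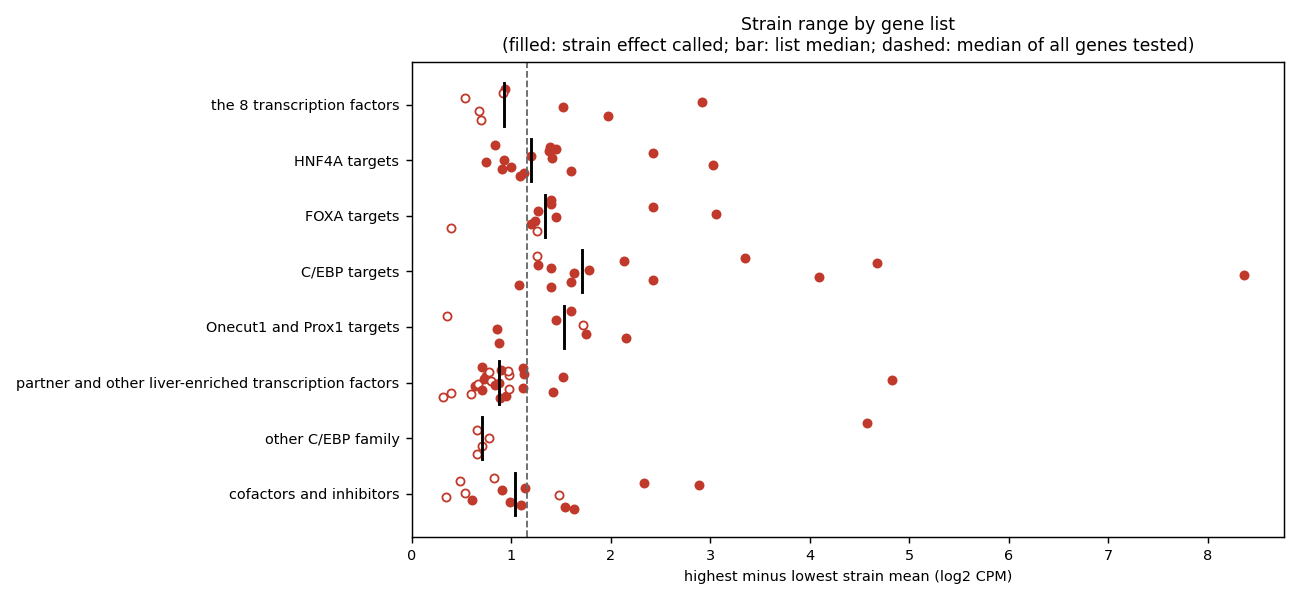
Strain range (highest minus lowest strain mean, log2 CPM, horizontal axis) of every tested gene of each list (vertical axis); filled points have a called strain effect, black bars are list medians and the dashed line is the median of all tested genes, 1.16. The 8 factors, the other liver transcription factors and the other C/EBP genes have medians left of the line, at 0.92, 0.87 and 0.70, and the 4 target lists have medians right of it, from 1.20 to 1.70.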

How the data were processed

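Polyadenylated RNA from hepatocytes was sequenced with a TruSeq RNA kit, per the labels' protocols. Estimated counts (expected counts) per Ensembl gene were deposited by the authors in 1 table for 27 libraries; 14.7% of its values are not whole, so some reads were divided between genes. The submitters' processing notes name GRCm38, mm10, FastQC 0.11.5 and DESeq2, without a role; the aligner, the counter, and whether strain genomes were used are not given in the sources used here, and alignment to a single genome can lower counts in divergent strains. Symbols came from GENCODE M21, for 42462 of 43346 IDs, with its GRCm38 coordinates.

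Counts were rounded, filtered with filterByExpr (14482 genes left) and scaled with TMM (factors 0.722 to 1.226). One quasi-likelihood model with strain as the only factor was fitted to all libraries in edgeR 4.0.16 (limma 3.58.1, R 4.3.3). The strain effect, each strain against the mean of the other 8 and all 36 pairs were tested, with Benjamini-Hochberg adjustment over all tested genes and calls under 0.05. Standard errors were derived from the F statistic. Strain ranges, SDs and correlations used log2 CPM (edgeR, prior count 2). The scripts were tested on simulated data.

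The genes and lists were chosen with earlier results of these data known. Named genes are all 8, the 3 widest called and the narrowest gene of each list, and the 3 genes most correlated with each of the 8; a few that the rule takes are not reported here. Alternatives were DESeq2 1.42.0, median-of-ratios size factors, no filter, the replicate number as a block, a minimum mean of 10 counts, Kupffer and endothelial list means as covariates, other prior counts and windows of level, and leaving out each library. Those with a GC trend removed, an immediate early covariate or overlapping genes summed were added after seeing the data.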

Additional observations from a re-analysis of the deposited data

How the results depend on the processing

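Where settings changed how many of the 8 genes were called, the counts were these. DESeq2 called 7 for the strain effect (79.0% of all genes), 1 in NOD/ShiLtJ (Cebpa), 3 in CAST/EiJ (with Hnf4a) and 2 in PWK/PhJ (Foxa1 and Prox1). Median-of-ratios size factors called 6 for the strain effect, adding Hnf4a and Foxa1 (74.7% of all genes called), and 3 in CAST/EiJ (with Hnf4a). Without a filter, 5 were called for the strain effect (with Prox1; 46.4% of all genes), 2 in A/J (without Hnf4a), 1 in C57BL/6J (Onecut1), 2 in NZO/HlLtJ (with Foxa2), and Prox1 in place of Foxa1 in PWK/PhJ. Kupffer and endothelial covariates left 2 in A/J (without Hnf4a), 0 in DBA/2J, 1 in CAST/EiJ and 0 in PWK/PhJ. Removing the GC trend gave 6 for the strain effect (with Hnf4a and Foxa1; 76.2% of all genes), 2 in A/J (without Cebpa), 1 in NOD/ShiLtJ and 1 in WSB/EiJ (Cebpa in both), 2 in NZO/HlLtJ (with Foxa2), and Hnf4a in place of Foxa3 in CAST/EiJ. The immediate early covariate gave 3 in CAST/EiJ (with Hnf4a) and 0 in PWK/PhJ. Summing overlapping genes left 0 in DBA/2J and 1 in CAST/EiJ. Of the 5 other C/EBP genes, DESeq2 called 3, median-of-ratios factors 2, the covariates 3, the GC correction 2, and a mean of at least 10 counts 0, since Cebpe is then not tested. The cause was not tested elsewhere. The share of the 8 genes called was below that of all genes in the strain effect reported above, and above it with DESeq2. Without a filter it was above 46.4%, but that share includes low-count genes and is over 23822 genes, so it is not a like comparison.

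Over all tested genes the replicate numbers paired the samples weakly at most. Libraries of different strains with the same number had a median correlation of deviations of 0.0232 over 76 pairs, of which 17 exceeded 0.1. Of 26 libraries, 7 were closest to one of their own number. Those numbered 1 still exceeded the others of their strain in the immediate early list mean in 7 of 7 strains, by a mean of 0.76. What the numbers share was not tested. With the replicate block, 4 of the 8 genes had a called strain effect (64.6% of all genes; Foxa2 at adjusted p = 0.0723), 2 were called in A/J, 2 in NZO/HlLtJ (with Foxa2), 0 in CAST/EiJ and 0 in PWK/PhJ. Hnf4a in A/J fell by 0.43 (adjusted p = 0.0553) and Foxa3 in CAST/EiJ by 0.55 (0.286), Prox1 in CAST/EiJ was higher by 0.24 (0.522) and Foxa1 in PWK/PhJ by 0.34 (0.0831); 19 of the 288 pairs were called (18.9% over all genes).

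With each library left out, the strain effect was called for 4 to 5 of the 8 genes. The counts were 0 to 1 in 129S1/SvImJ, 1 to 3 in A/J, 0 to 1 in DBA/2J, NOD/ShiLtJ and WSB/EiJ, 1 to 2 in NZO/HlLtJ, 0 to 3 in CAST/EiJ, 0 to 2 in PWK/PhJ and 0 in C57BL/6J, and 23 to 39 of the pairs. Lists gave 15 for HNF4A, 7 to 9 for FOXA, 12 to 14 for C/EBP, 5 to 6 for Onecut1 and Prox1, 15 to 19 for partner factors, 1 to 3 for other C/EBP genes and 7 to 9 for cofactors. Correlated pairs numbered 0 to 1. The lowest count of the 8 genes in any library was 79, so no gene of the 8 was near the limit of detection; with 3 libraries a strain, what limits these comparisons was not tested.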
